A study of Mus musculus with 2 samples.

Results

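Transcripts of the bone morphogenetic protein (BMP) pathway were measured in kidney glomeruli for 4 ligands (Bmp2, Bmp4, Bmp6, Bmp7), 2 secreted regulators (Bmper, Grem1), 2 receptors (Bmpr1a, Bmpr2) and the inhibitory Smad6. Every probe set whose platform annotation gave exactly 1 of these 9 symbols was taken, which gave 18 of the 45037 probe sets that are not controls, for 9 of 18193 genes named by a probe set with 1 symbol. A probe set is a group of short oligonucleotides on the array that reports 1 transcript or a group of related ones. Glomeruli had been isolated from 20-week-old male mice of the inbred strain KK/Ta, which develops obesity and type 2 diabetes. Total RNA was hybridised to Affymetrix Mouse Genome 430 2.0 arrays, 1 for mice fed a high-fat diet (HFD) and 1 for mice fed normal chow (Chow). The series' design mentions 3 mice. Whether RNA of several animals was pooled on an array is not stated. No transgene, drug or deletion was named for either diet.

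BMPs are secreted ligands of the TGF-beta superfamily. They bind a complex of type I receptors (such as BMPR1A, also called ALK3) and type II receptors (such as BMPR2), which phosphorylates Smad1, Smad5 and Smad9. These join Smad4 and enter the nucleus, where Id genes and the inhibitory Smads are among the direct targets. SMAD6 blocks the receptors and the receptor-activated Smads, so its own transcript is part of a negative feedback loop. Secreted proteins such as gremlin and BMPER bind the ligands outside the cell. In the kidney BMP7 is known from nephron development and gremlin from diabetic kidney disease.

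Because Smad6 is itself a target gene of BMP signals, promoter windows were searched for 2 elements that Smad proteins are known to bind: GTCTAGAC, the palindromic Smad box, and GGCGCC, a GC-rich element. Both are their own reverse complement, so a single search covers both strands, and the 2 words share no overlap. The windows run from 250 bases before to 50 bases after the annotated start (RefSeq, build GRCm38.p6, strain C57BL/6J rather than KK/Ta). Of the 9 genes, 7 had an entry: Smad6, Bmpr1a, Bmpr2, Grem1, Bmp4, Bmp6 and Bmper. GTCTAGAC stood in 1 of the 7, Smad6, and in 70 of 32851 promoter windows of this length (0.213%). GGCGCC stood in 3 of the 7, Bmpr1a, Bmpr2 and Grem1, and in 3898 windows (11.9%). It holds only G and C, which made up 79.3%, 59.3% and 70.7% of these 3 windows. Windows of like composition were not compared, so 3 of 7 is not read as an excess. In Smad6 the match spans the annotated start, beginning 4 bases before it. The Smad6 window is chr9:64022010-64022309 on the minus strand, that of Bmpr1a is chr14:34502497-34502796 on the minus strand, and that of Bmpr2 is chr1:59764029-59764328 on the plus strand. They are shown 5′ to 3′ because they hold the matches in the feedback gene and in both receptors, with the matched letters in capitals. A match describes the letters in the window and is not evidence of binding.
Smad6: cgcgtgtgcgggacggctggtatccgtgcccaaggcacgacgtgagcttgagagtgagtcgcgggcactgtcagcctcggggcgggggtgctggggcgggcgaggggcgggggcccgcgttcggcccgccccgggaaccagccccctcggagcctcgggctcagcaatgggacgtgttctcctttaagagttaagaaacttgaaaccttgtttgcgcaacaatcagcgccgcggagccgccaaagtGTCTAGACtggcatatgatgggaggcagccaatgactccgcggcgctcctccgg
Bmpr1a: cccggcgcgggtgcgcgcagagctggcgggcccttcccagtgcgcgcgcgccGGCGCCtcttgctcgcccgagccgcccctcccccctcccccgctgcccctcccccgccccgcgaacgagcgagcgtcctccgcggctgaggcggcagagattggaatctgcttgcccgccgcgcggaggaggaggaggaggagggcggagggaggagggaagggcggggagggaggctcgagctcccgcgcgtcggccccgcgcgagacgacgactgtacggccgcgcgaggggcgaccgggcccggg
Bmpr2: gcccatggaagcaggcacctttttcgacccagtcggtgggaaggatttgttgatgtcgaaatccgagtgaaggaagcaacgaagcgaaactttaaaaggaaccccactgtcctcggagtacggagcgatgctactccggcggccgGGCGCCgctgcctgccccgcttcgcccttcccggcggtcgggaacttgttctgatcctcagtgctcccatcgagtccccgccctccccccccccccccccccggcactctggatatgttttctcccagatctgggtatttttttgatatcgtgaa

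Each diet had a single array, so replicate error is unknown and the diets were not compared by a test. Differences are HFD minus Chow on the log2 scale after each array was centred on its median, which added 0.083 to every difference. Signals under the array median (42.3 in HFD and 44.9 in Chow) were treated as a floor, because the file holds no detection calls. Precision is described by the like-signal scatter, the scaled median absolute deviation of differences over probe sets in the same of 10 equal bins of mean signal. It was 0.157 in the brightest bin and 0.331 in the dimmest. In the dim bins it is itself limited by the floor, since probe sets under it on either array are left out. Measurement noise and real differences both enter it, and variation between mice cannot be read from it. Log2 signals of the 2 arrays correlated with r = 0.987 across the 21617 probe sets above the floor on both, which are not independent replicates. The control probe sets of Gapdh differed by 0.20 to 0.28 and those of actin by 0.14 to 0.28, all higher in HFD. The 9 hybridisation controls had a median of -0.037. Differences of that size and direction are within the range of a housekeeping transcript, which is not a measure of error.

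No BMP probe set above the floor differed by 2-fold between the diets. Of the 18, 16 were above the floor on both arrays and 2 on neither. Of the 23419 probe sets on the arrays that passed the floor on either array, 144 (0.615%) were higher in HFD by 2-fold or more, and 69 (0.295%) were lower by as much. Without centring these were 106 and 96. At 1.5-fold, 1 BMP probe set was higher, for Bmp7, and 0 were lower, against 3.66% higher and 2.58% lower of all probe sets. Differences ran from -0.33 to 0.81 with a median of 0.037, against a median of 0.038 for all probe sets. The BMP median was -0.046 without centring, -0.016 after quantile normalization and 0.0044 after loess. Beyond 2 times their like-signal scatter lay 3 of the 16, those of Bmp2, Smad6 and 1 of Bmp7, against 8.11% of all probe sets above the floor on both arrays. Beyond 1 time the scatter lay 7 of the 16, against 34.1%. Bmper lay just inside the 2-times limit, at 1.99. These counts are small and are given as a description.

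**Figure D1:**
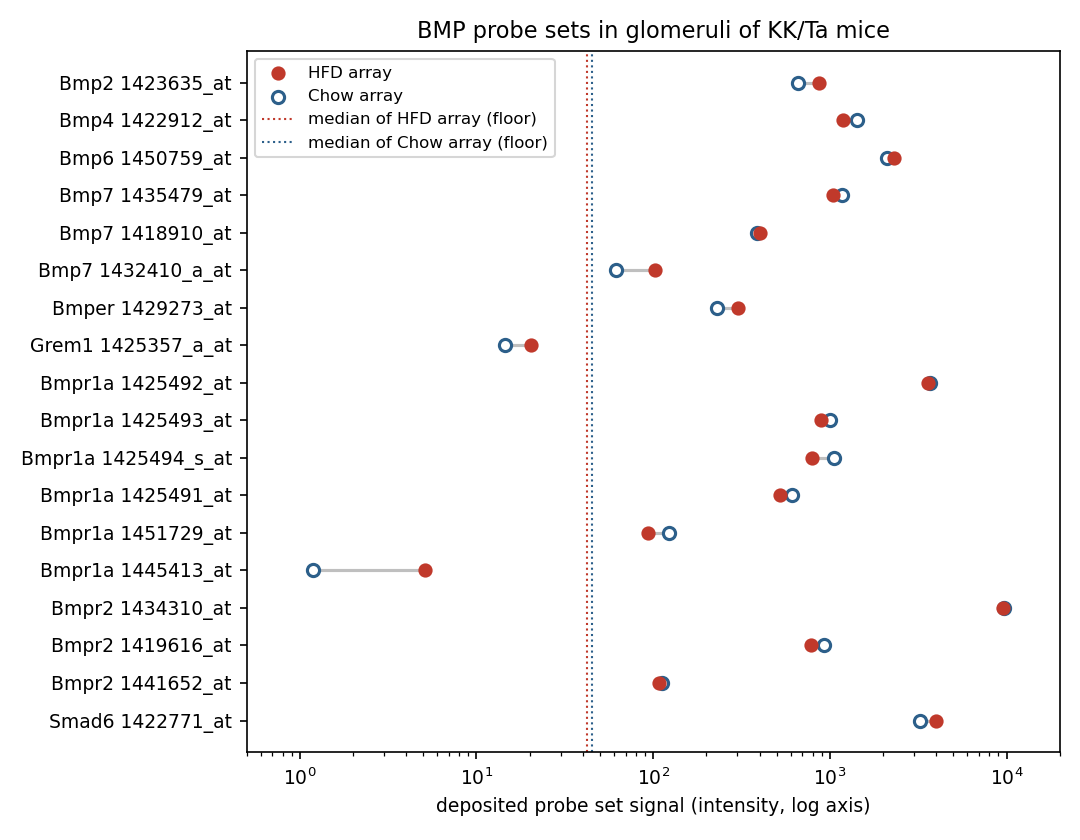
Deposited signal (horizontal log axis, intensity) of each of the 18 BMP probe sets on the HFD array (filled) and on the Chow array (open), with the median of each array as a dotted line. Grem1 and 1 Bmpr1a probe set lie left of both medians, and the other 16 lie right of them.

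**Figure D2:**
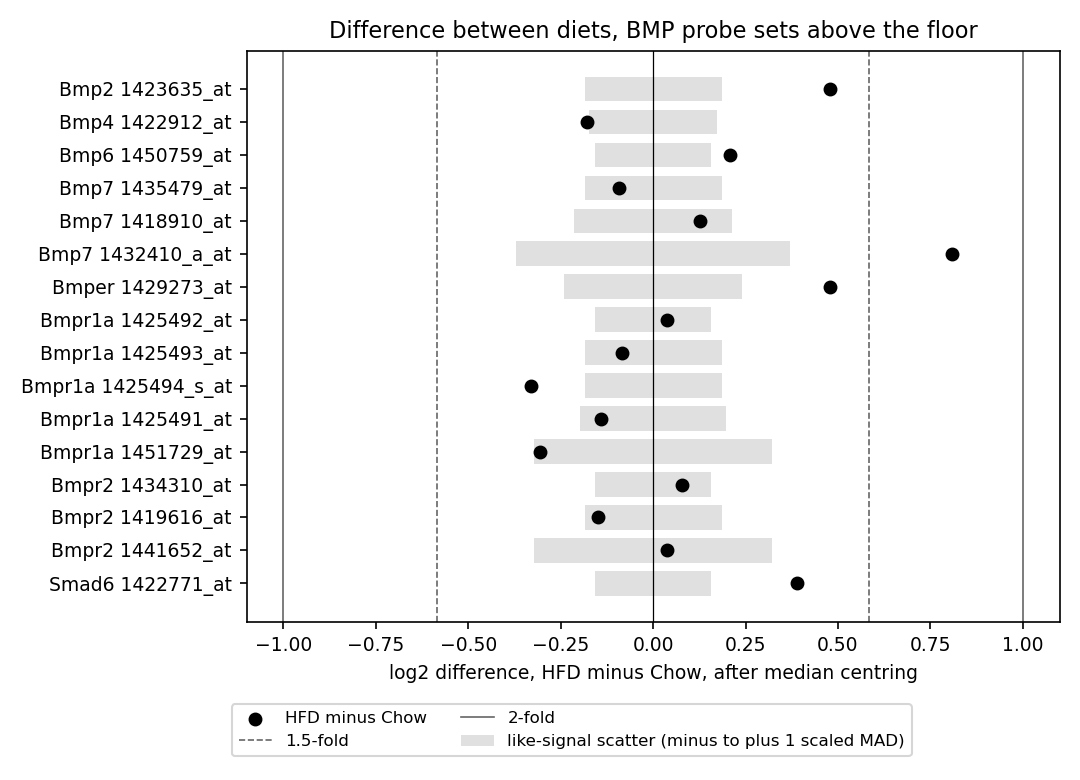
Log2 difference, HFD minus Chow (points), of the 16 BMP probe sets above the floor on both arrays, with grey bars from minus to plus 1 like-signal scatter. Bmp2, Smad6 and the dim Bmp7 probe set lie beyond 2 times the scatter, and no point reaches the solid 2-fold lines.

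Among the ligands, Bmp2 stood higher in HFD and Bmp4 slightly lower. BMP2 is a ligand of BMPR1A and BMPR2 that is made by many endothelial cells. Bmp2 had a signal of 871 in HFD and 662 in Chow, a difference of 0.48 (1.39-fold) against a like-signal scatter of 0.185. It kept its sign over the 7 other treatments of scaling, floor and offset, from 0.39 to 0.48. Changes of the floor alone could not alter it, nor the difference of any other probe set above every floor used. Bmp4, the closest relative of Bmp2 and a regulator of ureteric bud branching, had 1187 in HFD and 1423 in Chow. Its difference of -0.18 (1.13-fold lower) was close to the scatter of 0.173. Bmp2 and Bmp4 thus lay on opposite sides of 0, each with 1 probe set. Bmp6, a ligand known for the control of hepcidin and iron in liver, had 2306 in HFD and 2115 in Chow. Its difference was 0.21 (1.15-fold) with a scatter of 0.157, within the range of Gapdh.

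Bmp7, which supports nephron progenitors and is also made in mature tubules and podocytes, had 3 probe sets that differed in direction. The brightest, 1435479_at, read 1038 in HFD and 1172 in Chow (difference -0.092). Probe set 1418910_at, made for the RefSeq transcript, read 400.3 in HFD and 388.6 in Chow (0.13). Both differences were smaller than their scatter of 0.185 and 0.213. The remaining one, 1432410_a_at, is dim, with 102 in HFD and 61.9 in Chow, and was the only BMP probe set past 1.5-fold (0.81, 1.75-fold). Its scatter was 0.37, near the floor. The SD over the 3 differences was 0.47, larger than their mean of 0.28, so the gene has no single direction here. The Bmp7 probe sets come from 3 different sequence accessions, and which transcripts each one reads was not tested.

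The secreted regulators differed in whether they could be measured. BMPER, known from endothelium as a BMP-binding protein that can restrain or promote signalling, read 302 in HFD and 230 in Chow. Its difference of 0.48 (1.39-fold) lay beyond a scatter of 0.24 and ran from 0.40 to 0.48 over the other treatments. Grem1 encodes gremlin, an antagonist of BMP2, BMP4 and BMP7. Its single probe set read 20.2 in HFD and 14.6 in Chow, at the 38.4th and the 32.1st percentile of the arrays, so both were under the floor and no difference is given. A level this low does not show that the transcript is absent, since probe sets respond differently to the same amount of RNA.

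The receptors had bright probe sets on both arrays and small differences. Bmpr2, the main type II receptor, had 3 probe sets. The brightest, 1434310_at, read 9601 in HFD and 9639 in Chow and lay above the 99th percentile of both arrays. Its difference was 0.078, but -0.0056 without centring and -0.015 after quantile normalization. Probe set 1419616_at read 784.0 in HFD and 922 in Chow (-0.15). Probe set 1441652_at read 108 in HFD and 112 in Chow (0.039, but -0.045 without centring). All 3 differences were smaller than their scatter.

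Bmpr1a, the type I receptor, had 6 probe sets, of which 5 were above the floor and 4 of these 5 stood lower in HFD. The 5 were designed on a single sequence accession and are not independent. The brightest, 1425492_at, read 3585 in HFD and 3704 in Chow, with a difference of 0.036 that was -0.047 without centring, -0.016 after quantile normalization and -0.014 after loess. The largest, 1425494_s_at, read 793 in HFD and 1056 in Chow (-0.33, 1.26-fold lower, scatter 0.185). Its suffix marks probes that may match several transcripts. Probe sets 1425493_at, 1425491_at and 1451729_at differed by -0.085, -0.14 and -0.31, each within its scatter. The mean of the 5 was -0.17 with an SD of 0.15 over probe sets. Their brightness spread 38.1-fold on the HFD array and 30.03-fold on the Chow array although they share an accession, so signals of different probe sets are not compared as amounts of transcript. The remaining one, 1445413_at, read 5.10 in HFD and 1.20 in Chow, under the floor on both arrays.

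Smad6, the inhibitory Smad whose promoter window is shown above, read 3997 in HFD and 3234 in Chow. Its difference was 0.39 (1.31-fold) with a scatter of 0.157, and it ran from 0.31 to 0.39 over the other treatments. The signal lay at the 98.0th percentile in HFD and the 97.2nd in Chow.

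**Figure D3:**
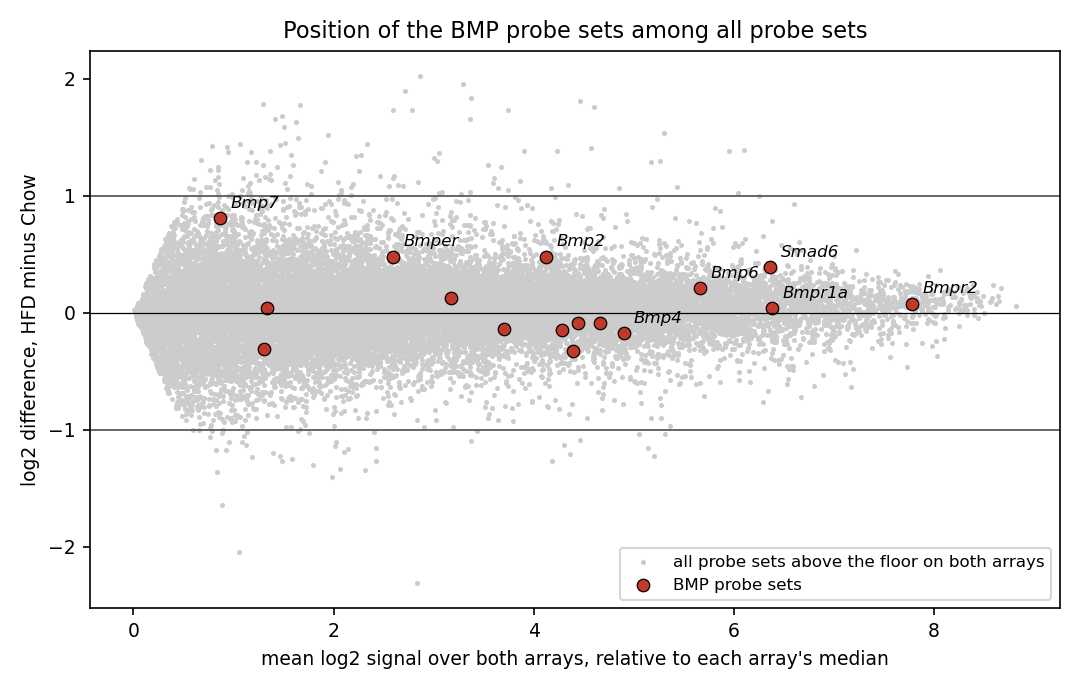
Log2 difference, HFD minus Chow, against mean log2 signal over both arrays for the 21617 probe sets above the floor on both (grey) and the 16 BMP probe sets (red). The BMP points span nearly the whole brightness range, from the dim Bmp7 probe set to Bmpr2, and lie between the 2-fold lines.

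The rest of the pathway was read through a list of 51 symbols in 5 roles, of which 46 had a probe set that names 1 gene. Of their 94 probe sets, 59 passed the floor on either array, 55 of them on both. None of the 59 differed by 2-fold. At 1.5-fold 4 of the 59 were higher and 1 lower, against 3.66% and 2.58% of all probe sets. By any amount 37 were higher and 22 lower, against 56.6% and 43.4% of all probe sets. Of the 55 above the floor on both arrays, 35 were higher and 20 lower, against 57.1% of all such probe sets higher. The median of the 59 was 0.070. Small differences turned with the centring: without it 27 were higher and 32 lower (median -0.014), against 41.9% of all probe sets higher.

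Target genes had the highest median of the 5 roles, 0.32 over 12 probe sets. Of these, 8 were higher and 4 lower, against 56.6% of all probe sets higher. The 12 include 2 above the floor on 1 array only, and which array that was set their direction. Of the 10 above it on both, 7 were higher and 3 lower, against 57.1% of all such probe sets higher. Several genes have more than 1 probe set among the 12. Without centring 7 of the 12 were higher and 5 lower (median 0.23), against 41.9%. Hey1, a bHLH repressor that answers to Notch and to endothelial BMP signals, read 449 in HFD and 251 in Chow (0.93, 1.90-fold, scatter 0.213). Id2, an inhibitor of bHLH factors, read 542 in HFD and 341 in Chow with 1422537_a_at (0.75), and 0.41 was the difference of its brighter probe set. A further Id2 probe set, under the floor in HFD, stood at -0.12. Other Id genes did not share this direction throughout. Id3 stood at 0.33 (7579 in HFD and 6396 in Chow), while Id1, the most used readout of BMP signalling, stood at -0.097 (1597 in HFD and 1810 in Chow). The 3 Id4 probe sets stood at 0.41, -0.72 and -0.0019. The Id1, Id3 and Id4 values and the further Id2 probe sets were singled out after their values were seen.

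Intracellular components had no settled direction as a list and turned with the centring, as all probe sets did. Of 15 probe sets 9 were higher and 6 lower (median 0.039), against 56.6% of all probe sets higher (median 0.038). Without centring 4 were higher and 11 lower (median -0.044), against 41.9% of all probe sets higher (median -0.045). Smad7 had the largest difference. This second inhibitory Smad, which also restrains TGF-beta receptors, read 1128 in HFD and 863 in Chow (0.47, 1.39-fold, scatter 0.185). Its other probe set, whose suffix marks possible cross-matches, read 215 in HFD and 228 in Chow (-0.0043). Smad5, a receptor-activated Smad, came next at -0.14 with 1421047_at, within its scatter of 0.24. Its brightest probe set, 1433641_at, read 1322 in HFD and 1363 in Chow (0.039), and its dimmest, 1451873_a_at, stood at -0.067. The 3 probe sets of Smad1, the other receptor-activated Smad above the floor, differed by 0.059 to 0.14, all within their scatter.

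Receptors and co-receptors outside the 9 genes had a median of 0.028 over 17 probe sets (9 higher, 8 lower), but -0.055 without centring (7 higher, 10 lower). Of all probe sets, 56.6% were higher with centring and 41.9% without it. Of the 16 receptor probe sets above the floor on both arrays, 9 were higher and 7 lower with centring, against 57.1% of all such probe sets higher. The largest were Acvr2b, a type II receptor shared with activins (64.8 in HFD and 90.8 in Chow, -0.40), and Bmpr1b, a type I receptor (534.7 in HFD and 450.0 in Chow, 0.33). A second Acvr2b probe set stood at -0.076. Further ligands were mostly under the floor. Of 12 probe sets for 7 genes only Gdf5 (84.9 in HFD and 113 in Chow, -0.33) and Bmp1, a procollagen protease despite its name (367 in HFD and 360 in Chow, 0.11), were above it.

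Antagonists and modulators had a median of 0.25 over 13 probe sets, within the range of the Gapdh controls. Of these, 10 were higher and 3 lower, against 56.6% of all probe sets higher. The 10 include Fstl3, above the floor in HFD only. Of the 12 above it on both arrays, 9 were higher and 3 lower, against 57.1% of all such probe sets higher. Without centring 8 of the 13 were higher and 5 lower (median 0.17), against 41.9%. Twsg1, a BMP-binding partner of chordin, read 90.4 in HFD and 55.0 in Chow with 1421832_at (0.80). Sostdc1, an antagonist of BMP7 made in distal tubule, read 99.3 in HFD and 62.7 in Chow with 1460250_at (0.75). Both are dim, with a scatter of 0.37. Their other probe sets above the floor stood at 0.34 for Twsg1 and 0.29 for Sostdc1. Crim1, a transmembrane protein that binds BMPs, had probe sets in opposite directions. Its probe set 1452253_at read 369 in HFD and 565 in Chow (-0.53, scatter 0.198), and 1426951_at read 1471 in HFD and 1282 in Chow (0.28, scatter 0.173). Crim1 was named after its values were seen.

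Marker genes describe what the preparations held. Podocyte markers were bright, with a summed signal of 55120 in HFD and 59469 in Chow, and their 10 probe sets above the floor had a median difference of -0.019 (-0.10 without centring). Tubule markers were higher in HFD. Of all probe sets above the floor on both arrays, 57.1% were higher with centring and 42.1% without it. Of 15 proximal tubule probe sets, 11 were above the floor on both arrays and 11 of these were higher (median 0.64). Without centring 10 of these 11 were higher (median 0.56). The signal summed over all 15 proximal probe sets, above the floor or not, was 11188 in HFD and 7412 in Chow. Of 13 for later segments (loop, distal tubule, collecting duct), 8 were above it on both and 8 were higher (median 0.66), summing to 11978 in HFD and 8663 in Chow. Of 22 macrophage and myeloid probe sets, 12 were above it on both and 12 were higher (median 1.44), summing to 7104 in HFD and 2812 in Chow over all 22, and 7 more passed in HFD only. Endothelial markers were higher in 11 of 13 (median 0.18), summing to 48406 in HFD and 46668 in Chow, and mesangial markers in 6 of 8 (median 0.21), against 57.1% of all probe sets above the floor on both arrays. Without centring these were 9 of 13 (median 0.10) and 5 of 8 (median 0.13), against 42.1%. The endothelial and mesangial medians with centring lay within the range of the actin controls, 0.14 to 0.28. Tagln (0.68) and Acta2 (0.53), which mark contractile cells, had the largest mesangial differences and were picked for that size. Differences of the remaining mesangial probe sets above the floor were smaller and ran in both directions. Pdgfrb stood at 0.29 and -0.12, Itga8 at 0.27 and 0.15, Gata3 at 0.077 and Des at -0.016. Of 8 parietal epithelium probe sets, 2 were above the floor on both arrays, and their list median moved with the floor. The lowest signal of any probe set was 0.053, so a signal above 0 does not show detection. Several marker probe sets were under the floor on both arrays, among them 1 of Synpo (0.73 in HFD and 12.1 in Chow). Bmp2, Bmper, Smad6, Smad7, Hey1, Id2, Id3, Twsg1 and Sostdc1 had a probe set higher in HFD, like most tubule, myeloid, endothelial and mesangial markers. These genes were picked after their values were seen and for being higher, so the shared direction was set by the choice. Of all probe sets, 56.6% were higher in HFD. Smad7 and Id2 each also had a lower probe set. Bmp6 was higher too, while Bmp4 was lower. The part of the marked cells in those differences was not tested. In bulk RNA, more cells of a type and more RNA per cell cannot be told apart.

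**Figure D4:**
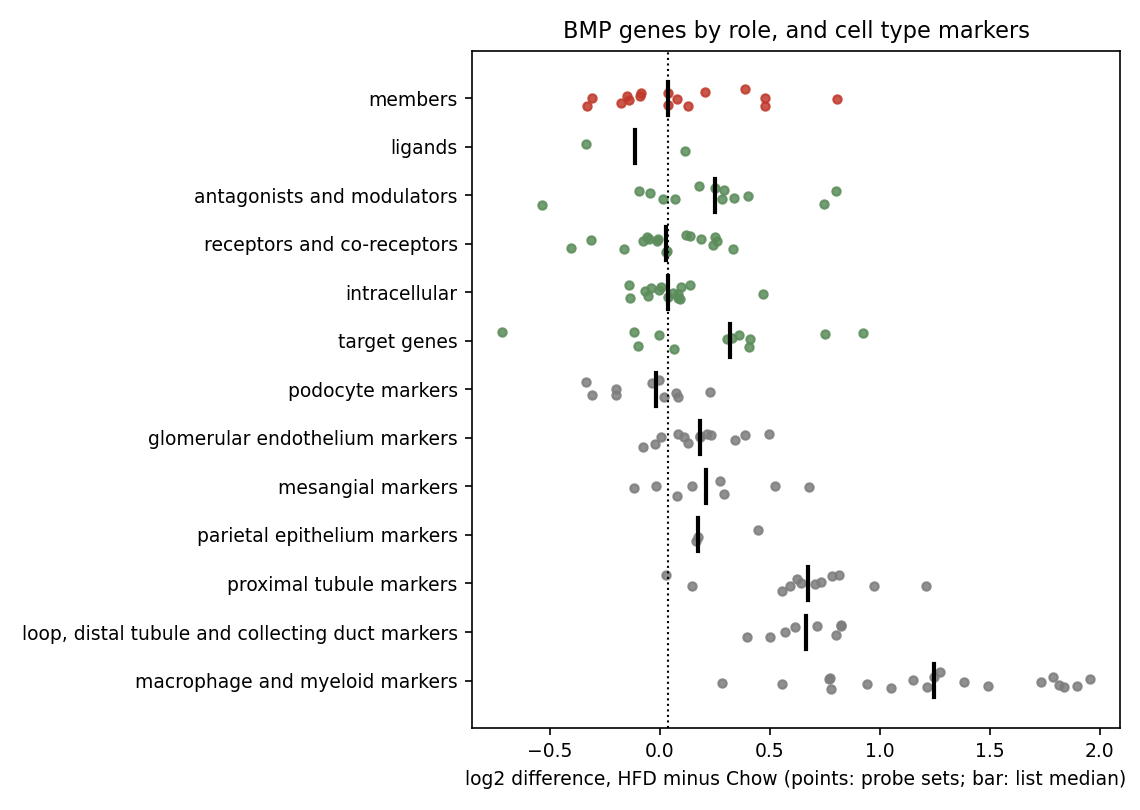
Log2 difference, HFD minus Chow, of each probe set that passed the floor on either array, for the 9 BMP genes (members, red), the further pathway genes by role (green) and cell type markers (grey), with list medians as bars and the median of all probe sets (0.038) dotted. The BMP median lies on the dotted line, and the tubule and myeloid markers lie to its right.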

How the data were processed

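Isolated glomeruli of HFD-fed and Chow-fed KK/Ta mice were measured on 1 array per diet, labelled by two-cycle amplification per the labels' protocols. The authors deposited linear probe set intensity values for 45101 probe sets. The submitters compared the diets in GeneSpring 7.3.1, per the series' design. Probe summary and scaling are not given in the sources used here. After 64 control probe sets were removed, values were divided by each array's median, raised to a floor at the 50th percentile and put on a log2 scale (numpy 2.4.6, pandas 2.3.3, Python 3.11.15; loess with statsmodels 0.14.6, span 0.3; figures with matplotlib 3.10.9). Gene symbols came from the 2016 platform annotation, under which 34945 probe sets name 1 gene. All 9 symbols matched RefSeq by Entrez identifier. Calls were counted at 2-fold, with no test. The procedure was tested on simulated data with changes larger than 2-fold planted in brighter probe sets. That test does not cover the smaller differences described here. The number of arrays limits the precision. All BMP probe sets are named. Of the further pathway genes, those past 2-fold and the 2 largest differences per role are named. The 9 genes, the pathway list and the marker lists were chosen with earlier results of these data known, so the marker counts are not independent evidence of their direction. Alternatives were no centring, quantile normalization, loess, a floor at the 30th or the 70th percentile, none at all, an added 25th percentile, 1.5-fold and 3-fold, and omission of shared probe sets.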

Additional observations from a re-analysis of the deposited data

How the results depend on the processing

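No paired analysis was possible because each diet has 1 array. All 109 recomputed differences of single BMP probe sets moved by less than their like-signal scatter. Of the 16 probe sets, 13 kept their sign under every treatment run that gave them a value. The 3 exceptions, 1 of Bmpr1a and 2 of Bmpr2, have differences under 0.1. Changing or removing the floor alone left unchanged every such difference that was still counted. With the floor at the 70th percentile, Bmp7 1432410_a_at, Bmpr2 1441652_at and Bmpr1a 1451729_at fell under it on both arrays and had no value. That Bmp7 probe set is the one past 1.5-fold. Omitting the centring shifted each of the 16 differences by 0.083, less than the smallest scatter of 0.157. Most of the 109 values thus could not have moved beyond their scatter. Counts past 2-fold depended on the floor. With no floor, 1 BMP probe set was higher, the Bmpr1a probe set 1445413_at (5.10 in HFD and 1.20 in Chow), and at 1.5-fold 1 was higher. Of the further pathway, 6 were higher and 10 lower with no floor, 1 higher and 3 lower with the floor at the 30th percentile, 2 lower with the 25th percentile added, and 4 higher and 1 lower at 1.5-fold. Of all probe sets, 4857 were higher and 4537 lower with no floor, 735 and 571 with the floor at the 30th percentile, 42 and 11 with it at the 70th, 1117 and 856 with the 25th percentile added, 857 and 605 at 1.5-fold, and 21 and 7 at 3-fold. These changes follow from which dim signals and which sizes are counted. The median of parietal epithelium markers, 0.18 over 3 probe sets, was -0.18 with no floor, -0.017 with the 25th percentile added, 0.42 with the floor at the 30th percentile and 0.45 with it at the 70th, since probe sets enter or leave, so it has no settled direction. Dim signals, such as those of Grem1, limit what can be said, and 1 array per diet leaves variation between mice unmeasured.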
